A study of Mus musculus with 13 samples.

Results

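Axin2, Lef1, Smad7 and Nr4a1 are standard target genes of the 3 signalling pathways that the study's compounds act on, and the peaks of HA-tagged Myf6 around them were described here across 13 CUT&RUN libraries of mouse embryonic fibroblasts. Members were the peaks of all 13 deposited lists that lay in 1 fixed GRCm39 window per gene. The windows were chr11:108761000-108892000 for Axin2, chr3:130854000-131068000 for Lef1, chr18:75450000-75580000 for Smad7 and chr15:101102000-101223000 for Nr4a1, with lengths of 131, 214, 130 and 121 kb. They held 105 of the 178951 peaks, of which 81 came from HA and IgG lists and 24 from the H3K27me3 list. Merged wherever intervals shared at least 1 bp, the HA and IgG peaks made 42 of the 71864 regions of the series, with 5 at Axin2, 8 at Lef1, 13 at Smad7 and 16 at Nr4a1. The windows were longer than the RefSeq genes they are named for by 98.0 to 101 kb. They can therefore also hold parts of neighbouring genes. In gene order the nearest protein-coding neighbours were Cep112 and Rgs9 for Axin2, Rpl34 and Hadh for Lef1, Dym and Ctif for Smad7, and Grasp and Atg101 for Nr4a1. A peak in a window was not assigned to a gene, exon or intron, because gene coordinates on this build were not used here.

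The fibroblasts came from mice that combined 3 alleles, namely Pax7-CreERT2, a Cre under the control of Pax7, the reporter Rosa26-LSL-tdTomato, and CAG-rtTA3. They had been transduced with a lentivirus in which a doxycycline-responsive TRE promoter drives mouse Myf6 carrying HA tags. The transactivator rtTA3 that doxycycline acts on came from the mouse allele, under the CAG promoter. All groups carried these alleles and the virus, and all were kept for 24 h in the medium labelled iMPC medium. Uninduced cells received neither doxycycline nor compounds, +Myf6 cells received 2 µg/mL doxycycline, and +Myf6+F/R/C cells received 2 µg/mL doxycycline with 5 µM Forskolin, 5 µM RepSox and 3 µM CHIR99021. Each treatment had 2 HA and 2 control IgG libraries, each pair divided from the same nuclei, and a lone H3K27me3 library came from cells with Myf6 and the compounds. CUT&RUN cuts chromatin with a nuclease tethered to the antibody, so a peak is a place where released fragments pile up. No group received the compounds without Myf6, and the compounds were given together, so an effect of the compounds apart from Myf6, or of 1 compound, cannot be told apart here. The lists hold no RNA values, so neither the cell type nor the response of the 4 genes to the compounds could be checked. Replicates were not stated to be separate cultures, so their spread may be technical. The libraries came from whole populations, in which fewer bound cells and less binding per cell cannot be told apart.

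As background, CHIR99021 inhibits GSK3, the kinase that marks β-catenin for destruction, and so activates canonical Wnt signalling. β-catenin then acts through TCF/LEF factors on genes such as Axin2, a scaffold of the destruction complex that feeds back on the pathway, and Lef1, itself a DNA-binding partner of β-catenin. RepSox blocks the kinase of a TGF-β receptor (type I), which otherwise phosphorylates SMAD proteins. Smad7 is an inhibitory SMAD that TGF-β signalling induces as negative feedback. Forskolin activates adenylyl cyclase. The cAMP it makes leads through protein kinase A to CREB, which binds cAMP response elements (CRE), and Nr4a1 (Nur77), an orphan nuclear receptor, is an immediate-early gene of this route. Myf6 (MRF4) is a myogenic basic helix-loop-helix factor, a family that binds E-boxes.

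RefSeq promoter sequences (GRCm38.p6, plus strand, 250 bases before the start) were available for 3 of the 4 genes and are shown to set out which letters known to be read by the compounds' pathways and by Myf6 family factors they hold. Capitals mark E-boxes (CANNTG) and the core of the gene's own pathway, which was CTTTG for TCF/LEF or CGTCA for CRE, searched on both strands.
Axin2: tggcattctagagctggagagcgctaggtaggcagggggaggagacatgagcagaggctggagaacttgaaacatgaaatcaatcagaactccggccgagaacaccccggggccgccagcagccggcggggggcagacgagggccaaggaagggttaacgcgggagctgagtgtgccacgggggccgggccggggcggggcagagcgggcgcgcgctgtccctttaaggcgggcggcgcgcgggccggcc
Lef1: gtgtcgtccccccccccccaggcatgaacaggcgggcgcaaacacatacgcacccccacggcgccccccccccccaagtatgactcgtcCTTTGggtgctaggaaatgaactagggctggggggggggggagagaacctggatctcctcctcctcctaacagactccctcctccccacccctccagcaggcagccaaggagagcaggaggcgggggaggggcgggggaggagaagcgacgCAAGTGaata
Nr4a1: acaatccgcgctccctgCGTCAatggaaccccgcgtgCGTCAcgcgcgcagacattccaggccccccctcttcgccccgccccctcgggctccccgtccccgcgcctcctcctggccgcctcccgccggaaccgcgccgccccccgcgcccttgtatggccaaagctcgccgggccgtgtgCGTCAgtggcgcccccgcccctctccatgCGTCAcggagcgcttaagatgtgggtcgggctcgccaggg
The Nr4a1 sequence held 4 CRE cores and 0 E-boxes. The Lef1 sequence, the first of 4 Lef1 promoters in the table, held 1 TCF/LEF core and 1 E-box, which did not overlap. The Axin2 sequence held neither set of letters. Among 32851 promoters of the table, read over the same 250 bases, 66.2% held an E-box, 48.6% a TCF/LEF core and 17.8% a CRE core. Only 45 promoters (0.137%) held 4 or more CRE cores. Of 10 further Wnt genes listed, 6 had a promoter in the table, and 2 of these (Dkk1, a Wnt inhibitor, and Sp5, a transcription factor) held a TCF/LEF core. Of 10 further cAMP genes, 8 had a promoter, and 7 of these (Dusp1, Fos, Nr4a2, Nr4a3, Pde4b, Per1 and Ppargc1a) held a CRE core. Of 10 further TGF-β genes, 6 had a promoter, and 5 of these held the short SMAD box GTCT, which 82.9% of all promoters held. These matches describe letters only, and the peaks below were not placed relative to these sequences.

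The measured values were the authors' fold enrichment at each peak's summit, a ratio to the local background, and the summit pileup. The pileup is the number of fragments over the summit and was recovered from the fold and its p-value. Sequencing depth is given as the mean number of fragments in 10 kb. For replicates 1 and 2 of the HA antibody it came to 42.4 and 30.6 with Myf6, to 61.9 and 40.9 with Myf6 and the compounds, and to 30.6 and 23.7 without induction. It was 8.25 to 22.7 in the IgG libraries and 54.3 in the H3K27me3 library. Pileups were therefore also scaled to 30.6 fragments per 10 kb and are then called depth-scaled. At mean background a pileup of 4 to 6 fragments was enough for a peak in an induced HA list, and 3 to 5 in a control list. A missing peak therefore means a signal under these limits, not none. The counting error is wide at these depths. A pileup of 10 has an exact 95% Poisson interval of 4.80 to 18.4, and one of 50 an interval of 37.1 to 65.9, both for counting error only.

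With Myf6 induced, HA peaks lay in all 4 windows, and the Nr4a1 window held more of them than any other. In the +Myf6 libraries there were 3 and 5 peaks at Axin2, 2 and 4 at Lef1, 5 and 4 at Smad7, and 6 and 9 at Nr4a1 (replicates 1 and 2). With the compounds there were 4 and 2, 4 and 4, 4 and 3, and 8 and 8 in the same order. In the uninduced HA libraries Axin2 and Lef1 had none, Smad7 had 0 and 1, and Nr4a1 had 3 and 1. The IgG lists held no peak in these windows, except for 1 at Nr4a1 in replicate 1 of +Myf6+F/R/C. Over the 4 windows the counts were 19 ± 4.24 in +Myf6, 18.5 ± 2.12 in +Myf6+F/R/C and 2.5 ± 0.707 in uninduced cells (mean ± SD, n = 2 each).

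**Figure D1:**
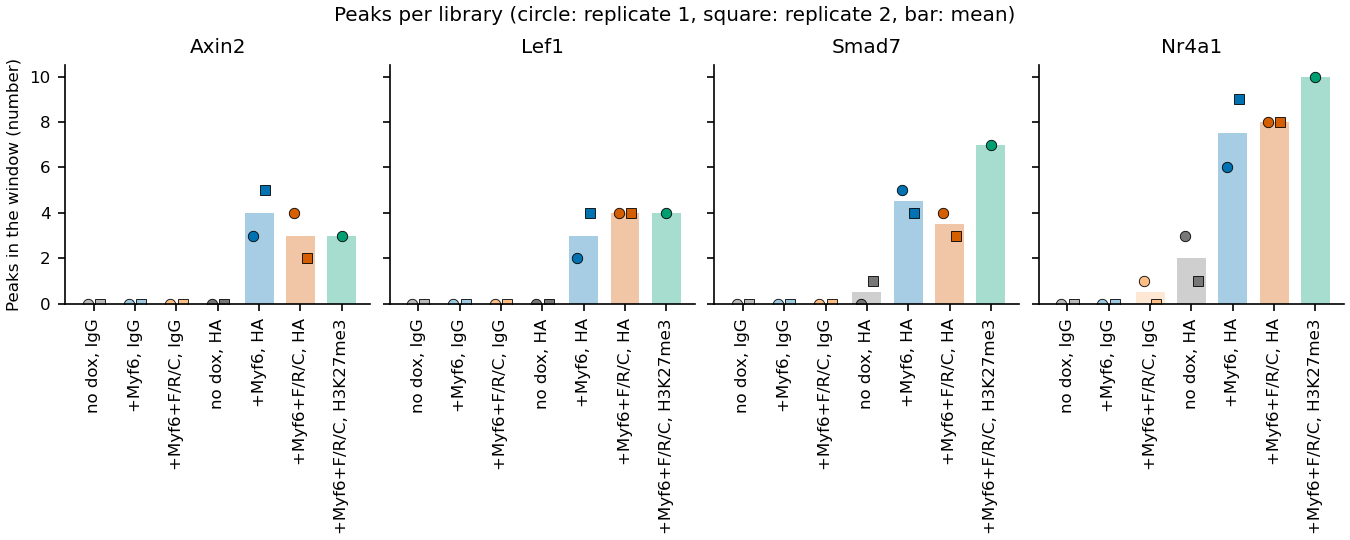
Number of peaks per library (vertical axis) in each window, by treatment and antibody (horizontal axis); circles are replicate 1, squares replicate 2 and bars the mean, with no error bar because n is 2, or 1 for H3K27me3. The counts of +Myf6 and +Myf6+F/R/C overlap or touch in all 4 windows, and the Nr4a1 window holds the most HA peaks, 6 to 9 in induced cells.

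In the lists as deposited, adding the compounds did not shift the number of HA peaks beyond the spread of the libraries in any of the 4 windows. The difference of +Myf6+F/R/C from +Myf6 was -1 peak at Axin2, 1 at Lef1, -1 at Smad7 and 0.5 at Nr4a1, and the groups overlapped or tied in every window. Exact permutation tests gave p = 0.667, 1, 0.667 and 1 (two-sided, n = 2 each), where 0.333 was the smallest p possible. These counts were not scaled for depth. The groups did part at Smad7 when scaled to the shallowest library (difference -1.5). They also parted at Lef1 with −log10 q of at least 5 (difference 1). The exact permutation p was 0.333 for both. The library names of +Myf6 and +Myf6+F/R/C begin with the same prefix within a replicate number, and what the prefix stands for is not explained in the labels. Compared within a number, the library with the compounds had more peaks in replicate 1 and fewer in replicate 2 at Axin2 and Nr4a1, more and equally many at Lef1, and fewer in both at Smad7. Tiles of 149 kb over the genome show how often such counts part by themselves. Both +Myf6+F/R/C lists held more peaks than both +Myf6 lists in 8.04% of 17825 tiles, and fewer in 3.31%.

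Against the controls, the 4 windows had more HA peaks after induction. Each +Myf6 library exceeded both uninduced HA libraries in all 4 windows, as did each +Myf6+F/R/C library. Both comparisons share the uninduced libraries. The uninduced replicate 1 has a name prefix of its own, while the replicates numbered 2 share one, and within these the induced libraries also held more peaks in all 4 windows. The +Myf6 mean was 4.00 ± 1.41 against 0 at Axin2, 3.00 ± 1.41 against 0 at Lef1, 4.50 ± 0.707 against 0.5 ± 0.707 at Smad7, and 7.50 ± 2.12 against 2.00 ± 1.41 at Nr4a1 (n = 2 each). The exact permutation p was 0.333 in each window, the smallest that 2 against 2 libraries allow, so none could pass 0.05. The same parting occurred in 45.5% of tiles for +Myf6 and 48.9% for +Myf6+F/R/C, so it is common in the series. Depth differed between these libraries. Scaled to the shallowest library, +Myf6 exceeded uninduced cells by 3.5, 3, 2.5 and 4 peaks at Axin2, Lef1, Smad7 and Nr4a1, and the groups still parted. For +Myf6+F/R/C the differences were then 1.5, 2.5, 1 and 2.5, and at Smad7 and Nr4a1 the groups no longer parted. HA also exceeded IgG of induced cells in every window. The means were 3.50 ± 1.29 at Axin2, 3.50 ± 1.00 at Lef1, 4.00 ± 0.816 at Smad7 and 7.75 ± 1.26 at Nr4a1, against 0, 0, 0 and 0.250 ± 0.5 in IgG (n = 4 each). The exact two-sided permutation p was 0.0286 in each window, the smallest possible, and 42.7% of tiles parted the same way. That test treats the libraries as independent. With each HA library paired to the IgG library of the same nuclei, flipping the signs of the 4 pairs gave an exact p of 0.125 in each window, the smallest possible, so no window passed 0.05. The IgG libraries were shallower, and with each HA library scaled down to the depth of its IgG partner no window passed 0.05. The differences were then 0.5, 1.25, 0.250 and 1.50 peaks, with exact permutation p of 0.429, 0.429, 1 and 0.0857.

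Set beside windows of the same length placed end to end over the genome, the Nr4a1 window was the one rich in HA peaks. Its counts of 6 and 9 in +Myf6 were reached by 3.48% and 0.560% of 121 kb windows, and its counts of 8 and 8 in +Myf6+F/R/C by 2.45% and 0.984%. The median window held 1 peak in each of these lists. The comparison windows, here and for H3K27me3 below, were not matched for gene content, while the 4 windows were each placed around a gene. Smad7's counts were reached by 7.88% to 25.8% of 130 kb windows, Axin2's by 11.8% to 38.7% of 131 kb windows and Lef1's by 31.2% to 47.3% of 214 kb windows. The 4 genes thus ran from a common to a rare density of peaks, with Lef1 nearest the median. In the uninduced HA lists, 0.128% of 121 kb windows reached Nr4a1's 3 peaks of replicate 1 and 15.7% its 1 peak of replicate 2.

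**Figure D2:**
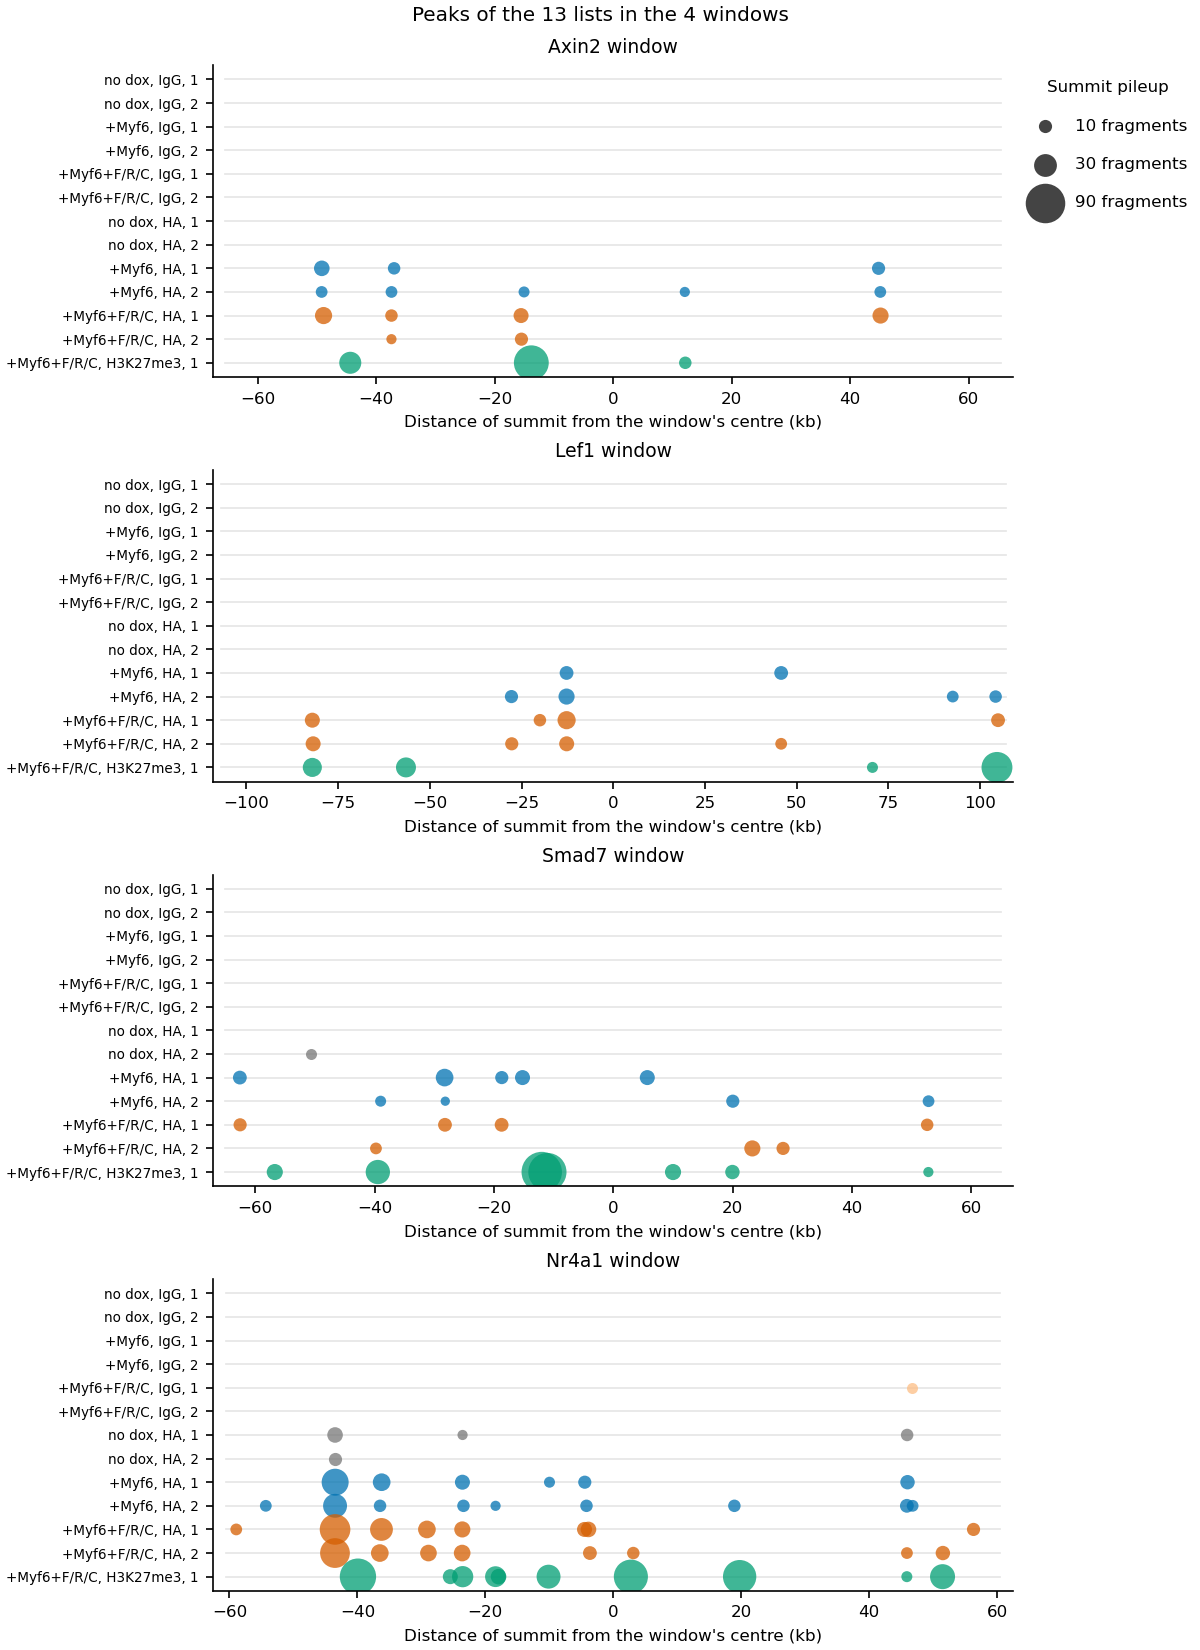
Summits of the peaks of the 13 lists (rows: treatment, antibody, replicate) by distance from the centre of each window in kb; dot area gives the summit pileup in fragments. Control rows are empty apart from the HA peaks without doxycycline at Smad7 and Nr4a1 and 1 IgG peak at Nr4a1, and H3K27me3 peaks lie in all 4 windows.

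Around Axin2, the scaffold that feeds back on Wnt signalling, 4 of 5 regions had a peak in at least 2 of the induced HA lists, against 45.6% of regions over the series. Each of these 4 had a peak in 3 or more lists, a share that was not computed for the series. None of the 5 regions had a peak in a control list, which only 10.7% of all regions had. The region present in all 4 induced lists was chr11:108788956-108789623, 28.3 kb from the window's start. Its pileups were 9 and 8 in +Myf6 and 9 and 6 in +Myf6+F/R/C. Depth-scaled, they were 6.48 and 8 against 4.44 and 4.48, so both libraries with the compounds lay below both without. The ratio was 0.616, or -0.70 in log2, with an exact permutation p of 0.333 (n = 2 each, the smallest possible). Both libraries with the compounds lay below both +Myf6 libraries at 22.1% of the 10625 regions with all 4 lists, so the order is common. By the authors' fold the groups overlapped, at 4.56 and 5.17 against 4.96 and 4.11. These pileups were small, and the 4 summits were spread over 445 bp against a median of 210 bp in the series. The +Myf6 peaks, at 108789206-108789623 and 108788974-108789201 in replicates 1 and 2, did not overlap each other. Only the peaks of the libraries with the compounds joined them into 1 region.

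The next 3 Axin2 regions were each missing from 1 induced list. At chr11:108777196-108777720 the pileups were 14 and 8 in +Myf6 and 17 in replicate 1 of +Myf6+F/R/C. At chr11:108871219-108871783 they were 10 and 8 in +Myf6 and 15 in replicate 1 of +Myf6+F/R/C. Both regions were thus sites of +Myf6 by the rule that both HA lists of a treatment, and none of the 8 control lists, hold a peak. They missed only the shallower library with the compounds. At chr11:108871219-108871783, however, the +Myf6 peaks of replicates 1 and 2 did not overlap each other. They lay at 108871219-108871389 and 108871527-108871687, and only the peak of replicate 1 of +Myf6+F/R/C joined them into 1 region. At chr11:108810814-108811535 the order was the other way round, with 13 and 10 in +Myf6+F/R/C and 7 in replicate 2 of +Myf6. This region overlapped an H3K27me3 peak. No Axin2 region was present in both libraries of 1 treatment and absent from both of the other.

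Around Lef1, the β-catenin partner, 1 region had a peak in all 4 induced lists, chr3:130947949-130948607, and its summits agreed to within 36 bp. Its pileups were 11 and 15 in +Myf6 and 19 and 13 in +Myf6+F/R/C. The depth-scaled values were 7.92 and 15.0 against 9.37 and 9.71, so the 2 libraries with the compounds lay between the +Myf6 ones. The log2 ratio was -0.26 (exact permutation p = 1, n = 2 each). Without depth scaling it was 0.30, so the direction at this region is not defined by these data. The folds were 6.26 and 9.83 in +Myf6 and 8.02 and 7.26 in +Myf6+F/R/C, and overlapped too. No control list had a peak there, and neither did the H3K27me3 list.

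A second Lef1 region, chr3:130878834-130879336, had peaks only in the libraries with the compounds, with pileups of 13 and 13 and folds of 6.78 and 7.26. It lay on an H3K27me3 peak with a pileup of 21 and a fold of 8.46, read in the same treatment. A depth-scaled pileup of 6.41 and 9.71 was above the 3.6 and 4 that the +Myf6 libraries needed for a peak at mean background. Counting error is wide at such pileups, and whether depth or counting error explains the missing +Myf6 peaks was not tested. The summits with the compounds lay at 130878958 and 130879175 in replicates 1 and 2. With summits within 200 bp in place of overlap, 1 site of either treatment was left at Lef1. Regions found only with the compounds made up 3.91% of all regions of the series. The 2 remaining Lef1 regions with peaks in 2 or more lists each had 1 from each treatment. Their pileups were 10 and 10 at chr3:130932907-130933457 and 11 and 8 at chr3:131006663-131007021 (+Myf6 first). The other 4 Lef1 regions were peaks of 1 list.

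Around Smad7, the inhibitory SMAD, HA peaks were spread over 13 regions. Of these 9 came from 1 induced list each, as did 36439 of the 71864 regions of the series. No Smad7 region was found in both libraries with the compounds, against 26.0% of all regions. The most repeated one, chr18:75486522-75487129, had pileups of 18 and 5 in +Myf6 and 11 in replicate 1 of +Myf6+F/R/C. It was the only site of the window, and the pileup of 5 in replicate 2 was just past that library's limit of 4. The 2 other repeated regions were found in both replicates numbered 1 and in neither numbered 2. At chr18:75452155-75452712 the pileups were 11 in +Myf6 and 10 in +Myf6+F/R/C, and at chr18:75496049-75496383 they were 10 and 11. The replicates numbered 1 were also the deeper ones. The peak of the uninduced library at chr18:75464324-75464431, with a pileup of 7, had no counterpart in any induced list.

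The strongest HA region of the 4 windows lay in the window of Nr4a1, the cAMP-responsive nuclear receptor, at chr15:101118386-101120106, and was 1721 bp wide. It lay 17.2 kb from the window's start and was not assigned to Nr4a1 or to a neighbouring gene. Its pileups were 42 and 33 in +Myf6, 54 and 51 in +Myf6+F/R/C, and 14 and 10 in uninduced cells. All 6 HA lists therefore had a peak there and no IgG list did, so by the rule on control lists it was not counted as a site. The summits in the 4 induced lists agreed to within 25 bp, and no H3K27me3 peak lay on the region. Depth-scaled, the values were 30.3 and 33.0, 26.6 and 38.1, and 14.0 and 12.9, so each induced library lay above both uninduced ones. The induced mean was 32.0 ± 4.82 (n = 4) and the uninduced mean 13.4 ± 0.743 (n = 2), a ratio of 2.38 with an exact two-sided permutation p of 0.0667, the smallest that 4 against 2 allow. The fragments of the uninduced libraries were shorter, 152 and 108 bp against 161 to 172 bp, and a shorter fragment adds to the pileup of fewer bases. Relative to each library's mean pileup, which takes up the fragment length, the ratio was 1.84 and the groups still did not overlap. The median log2 ratio of the 622 regions shared by the 6 HA lists and no IgG list was 0.15 with an upper quartile of 0.40, against 0.88 here. All induced libraries lay above both uninduced ones at 17.2% of those regions.

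**Figure D3:**
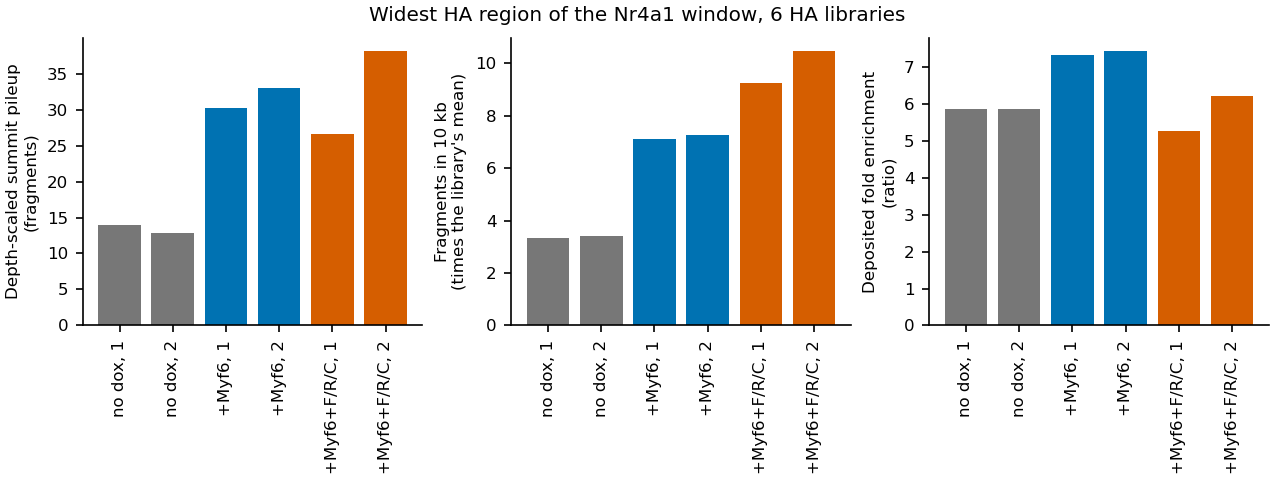
The 1721 bp Nr4a1 region in the 6 HA libraries, 1 bar per library: depth-scaled summit pileup in fragments (left), fragments in the 10 kb around the summit as times the library's mean (middle), and the authors' fold as a ratio (right). Pileup and 10 kb count are higher in the 4 induced libraries than in both uninduced ones, while the fold runs only from 5.28 to 7.43.

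Whether the compounds changed HA signal at this Nr4a1 region depended on the quantity. By depth-scaled pileup the means were 31.6 ± 1.94 in +Myf6 and 32.4 ± 8.09 in +Myf6+F/R/C (n = 2 each), and the groups overlapped (log2 ratio 0.03, exact permutation p = 1). The authors' fold was 7.34 and 7.43 in +Myf6 and 5.28 and 6.22 in +Myf6+F/R/C, so both values with the compounds were lower (log2 ratio -0.36). The count of fragments in the surrounding 10 kb went the other way, at 7.12 and 7.26 times the library mean in +Myf6 and 9.27 and 10.5 times in +Myf6+F/R/C (log2 ratio 0.46). The exact permutation p was 0.333 for the fold and for the 10 kb count, the smallest that 2 against 2 allow. The fold is a ratio to that local background, so the 2 values are not independent. Both libraries with the compounds lay below both +Myf6 libraries in fold at 17.8% of regions with all 4 lists, and above them in 10 kb count at 26.8% of such regions whose counts exceeded the library means. The uninduced libraries had 3.33 and 3.42 times their mean in the same 10 kb.

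The next Nr4a1 region, chr15:101125806-101126632, was a site of both treatments. Its pileups were 18 and 9 in +Myf6 and 30 and 18 in +Myf6+F/R/C. Depth-scaled they were 13 and 9 against 14.8 and 13.4, so both libraries with the compounds were higher, with a log2 ratio of 0.36 and an exact permutation p of 0.333 (n = 2 each, the smallest possible). That order held at 13.9% of regions with all 4 lists. Relative to each library's mean pileup the groups overlapped, at 26.3 and 18.3 in +Myf6 and 29.5 and 25.6 in +Myf6+F/R/C (log2 ratio 0.30, exact permutation p = 0.667). The 10 kb counts also parted, at 3.49 and 2.65 against 4.29 and 4.84 times the library means, and the folds overlapped. This region lies close enough to the strongest one that their 10 kb counts share fragments.

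Another Nr4a1 region of all 4 induced lists, chr15:101138778-101139421, had pileups of 13 and 9 in +Myf6, 15 and 16 in +Myf6+F/R/C and 6 in replicate 1 of the uninduced HA libraries. The depth-scaled groups overlapped (log2 ratio 0.08, exact permutation p = 1, n = 2 each), and an H3K27me3 peak lay on it. At chr15:101208245-101208611 there were pileups of 12 and 11 in +Myf6, 8 in replicate 2 of +Myf6+F/R/C and 9 in replicate 1 of the uninduced HA libraries. Peaks in a control list thus touched 2 of the 5 regions of all 4 induced lists in the 4 windows (40.0%), both at Nr4a1, against 27.5% in the series.

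A pair of Nr4a1 regions was found only with the compounds. At chr15:101133287-101133699 the pileups were 18 and 16, and at chr15:101158586-101159142 they were 14 and 11. The latter began 20 bp after the end of chr15:101157817-101158566, where +Myf6 had pileups of 10 and 9 and replicate 1 of +Myf6+F/R/C had 13. The +Myf6 summits there lay at 101158049 and 101158317, and those of the region found only with the compounds at 101158628 and 101158852. Replicate 1 of +Myf6+F/R/C had a separate peak in each region. Whether the absence from +Myf6 rests on where intervals end was not tested. Nr4a1 was the window with the most regions found only with the compounds, 2 of the 3 in all. They made up 12.5% of its 16 regions, against 3.91% of all regions. At chr15:101133287-101133699 the 10 kb counts were 3.02 and 3.47 times the library means. A peak there needs a higher pileup than at mean background. With summits within 200 bp in place of overlap, 0 sites of either treatment were left at Nr4a1.

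**Figure D4:**
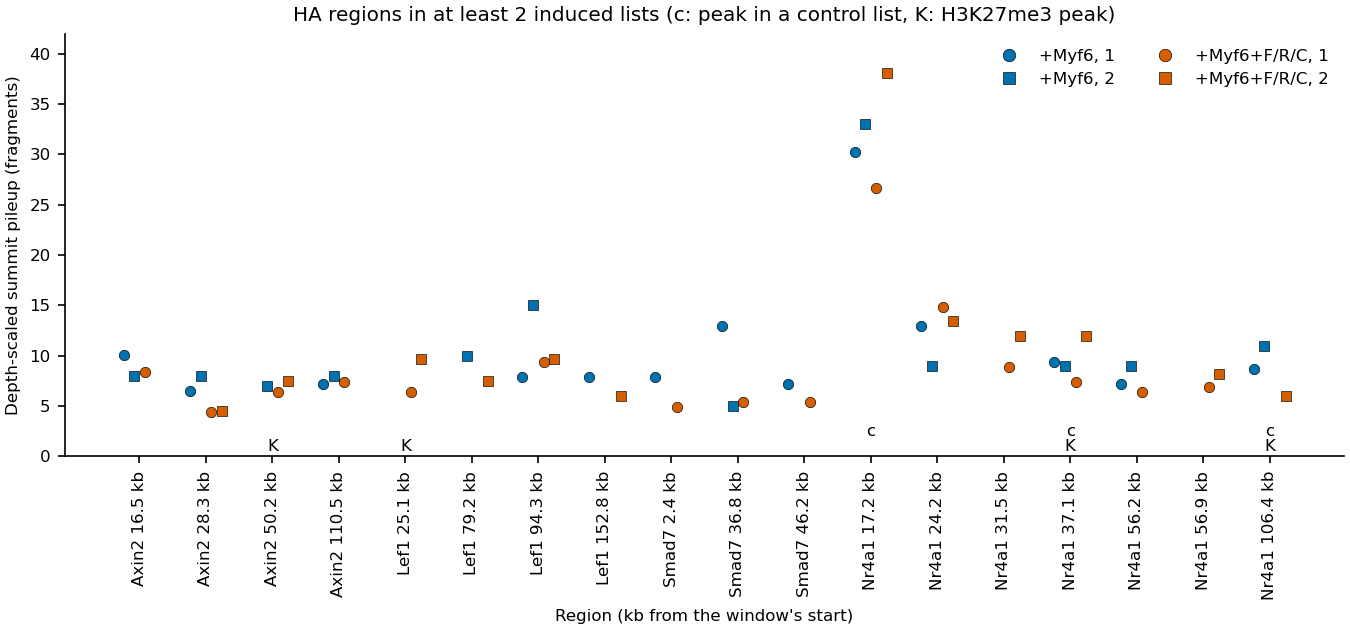
Depth-scaled summit pileup in fragments of the 18 regions with a peak in at least 2 induced HA lists, by window and distance from the window's start in kb; circles are replicate 1 and squares replicate 2, a missing point is a missing peak, c marks a peak in a control list and K an H3K27me3 peak. All 4 points are present at 5 regions, and the Nr4a1 region at 17.2 kb stands above the rest at 26.6 to 38.1.

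Counted over the 4 windows, sites of 1 or both treatments made up shares close to those over the whole series. There were 7 sites of +Myf6 among the 42 regions (16.7%), against 17.5% of all regions, and 7 of +Myf6+F/R/C (16.7%), against 21%. Sites of either treatment numbered 11 (26.2%), against 27.8%, with 4 at Axin2, 2 at Lef1, 1 at Smad7 and 4 at Nr4a1. Sites of both treatments numbered 3 (7.14%), against 10.7%, with 1 each at Axin2, Lef1 and Nr4a1. Regions of +Myf6+F/R/C alone numbered 3 (7.14%), against 3.91%, and regions of +Myf6 alone 0, against 2.24%. Peaks in at least 2 induced HA lists were found at 18 regions, against 45.6% of all regions, and peaks in all 4 at 5 regions (11.9%), against 14.8%. At these 5 the depth-scaled log2 ratio of +Myf6+F/R/C over +Myf6 ran from -0.70 to 0.36, and the median over 10625 regions was -0.08 with quartiles of -0.35 and 0.18. With so few regions these shares are counts and not a difference from the series.

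H3K27me3, the mark of Polycomb-repressed chromatin, was read in +Myf6+F/R/C cells without a replicate, and its peaks lay in all 4 windows. There were 3 peaks at Axin2, 4 at Lef1, 7 at Smad7 and 10 at Nr4a1, which covered 3.65%, 1.89%, 4.72% and 7.16% of the windows. The whole list of 32981 peaks covered 0.994% of the span between the first and last peaks of the chromosomes. Counts this high were reached by 24.8%, 28.9%, 5.05% and 1.14% of windows of the same lengths, so the Nr4a1 window, richest in HA peaks, was also the richest in H3K27me3 peaks. The median peak of the list had a pileup of 18 and a fold of 5.31.

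**Figure D5:**
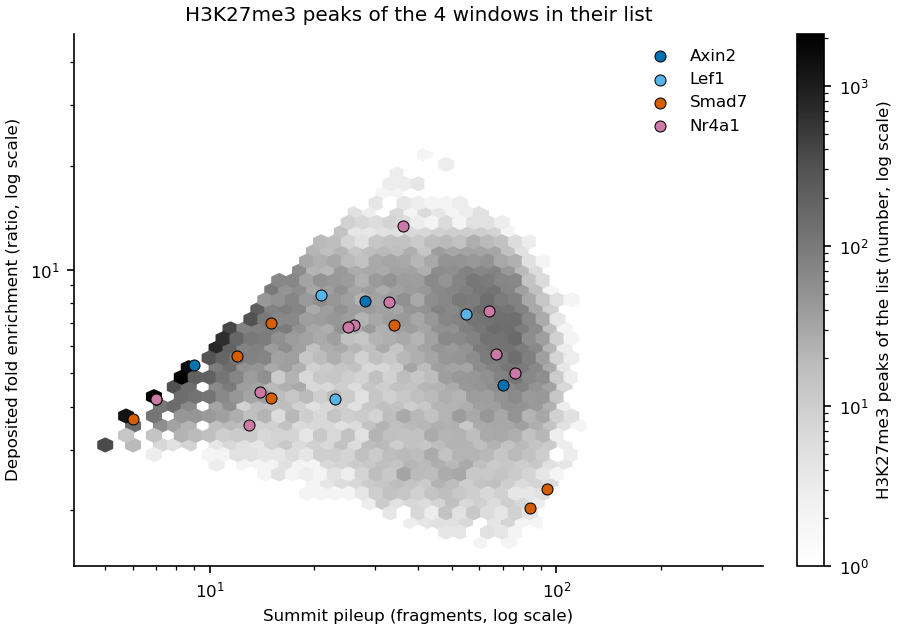
Summit pileup in fragments (horizontal, log scale) and the authors' fold as a ratio (vertical, log scale) of the H3K27me3 peaks in the 4 windows (coloured points) over all peaks of that list (grey, number per bin on a log scale). A pair of Smad7 peaks combines pileups of 84 and 94 with folds of 2.03 and 2.30, near the bottom of the list.

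The densest H3K27me3 signal of the 4 windows was at Smad7. The peak at chr18:75500673-75503690 had a pileup of 94, reached by 1.03% of the list, yet a fold of 2.30, which 98.9% of the list reached. Its neighbour at chr18:75503859-75504069 had a pileup of 84 and a fold of 2.03. The 10 kb around these summits held 2443 and 2481 fragments, 45 and 45.7 times the library's mean, and only 23 peaks of the list had more. The fold compares each summit with the pileup expected from these same 10 kb, which was 40.3 and 40.9 fragments. A list ranked by fold would place these peaks near its end. No HA or IgG list had a peak on either of them.

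At the other genes the H3K27me3 peaks were lower in local density. The highest pileup at Axin2 was 70, at chr11:108811026-108813769, with 869 fragments in 10 kb (16.0 times the mean). At Nr4a1 it was 76, at chr15:101121926-101123479, with 874 fragments (16.1 times the mean), between the strongest HA region and the site that follows it, and with no HA peak of its own. At Lef1 it was 55, at chr3:131064873-131066202, with a fold of 7.45. The sharpest peak was at Nr4a1, chr15:101213737-101214154, with a pileup of 36 and a fold of 13.4, which 0.461% of the list reached. A peak summit lay 51.7, 50.5, 53.0 and 50.4 kb from the start of the Axin2, Lef1, Smad7 and Nr4a1 windows, and these 4 peaks were picked after their values were seen.

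HA regions and H3K27me3 peaks met in all 4 windows. An HA or IgG region lay on 2 of 3 H3K27me3 peaks at Axin2, 2 of 4 at Lef1, 3 of 7 at Smad7 and 7 of 10 at Nr4a1. The share of all H3K27me3 peaks that lie on such a region was not computed, so these counts have no value of the series beside them. In turn 16 of the 42 regions (38.1%) lay on an H3K27me3 peak, against 26.1% of all regions. Of the 18 regions with peaks in 2 or more induced lists 4 did, against 32.6% in the series. Of the 11 sites of either treatment 2 did (18.2%), against 31.2%. Both of these sites, 1 at Axin2 and 1 at Lef1, were sites of +Myf6+F/R/C, the treatment in which H3K27me3 was read. The mark was not read in +Myf6 or uninduced cells, so whether it changed with Myf6 or the compounds was not measured.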

How the data were processed

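HA-tagged Myf6, control IgG and H3K27me3 were profiled by CUT&RUN in mouse embryonic fibroblasts, and the deposited data were 13 narrow peak lists, 1 per library. Replicates were thus called separately. Per the submitters' processing notes, MACS2, deepTools and DiffBind were used on GRCm39. The sources used here do not give the aligner, the filters or the versions of these tools. The columns deposited by the authors were a score, a fold (ratio to local background at the summit), p- and q-values written as −log10, and the offset of the summit. No list went below a −log10 q of 1.30. The fold and score are the peak's own values and were used to describe peaks within their list.

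From these, the observed pileup k (a whole number) and the expected pileup λ at each summit were recovered, reading the fold as the quotient of k + 1 and λ + 1 and the authors' p as a tail of the Poisson distribution. In every list 99.9% of peaks or more fitted the authors' −log10 p with a tolerance of 0.002. The lowest λ and the narrowest peak, taken as the fragment length, gave the mean fragments per 10 kb used as depth. The recovery was tested on simulated data. The 12 HA and IgG lists on chromosomes 1 to 19, X and Y were merged where intervals shared at least 1 bp. A site of a treatment had a peak in both of its HA lists and in none of the 8 control lists. Libraries were grouped by their labels. Counts and pileups were compared with exact two-sided permutation tests over libraries. With 2 against 2 the smallest p is 0.333, and p-values were not adjusted over the 4 windows. Python 3.11.15, NumPy 2.4.6, pandas 2.3.3, SciPy 1.17.1 and Matplotlib 3.10.9 were used.

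Named genes were the 4 members, described by their regions with peaks in at least 2 of the 4 induced HA lists, and further pathway genes from 3 lists of 10. The members and lists were chosen with earlier results of these data known. HA and IgG libraries of a replicate share nuclei, per the labels' protocols, and were paired in an alternative test. Alternatives were −log10 q of at least 5 or 10, scaling to the shallower library, other control filters, summits within 200 bp in place of overlap, windows shorter by 30 kb on each side, raw pileups, folds, and leaving out each library. RefSeq names, gene lengths, gene order and promoters were of GRCm38.p6, so no coordinates were taken from them. Counts of peaks at the further pathway genes, windows built from gene bodies, and a search for genes with like peak counts were not run for this reason.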

Additional observations from a re-analysis of the deposited data

How the results depend on the processing

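HA peak counts held their direction in most alternatives, and pileup differences between the treatments did not hold a direction at 3 of 5 regions. The difference of +Myf6+F/R/C from +Myf6 in peaks per window turned to 1 and 0.5 at Axin2 with −log10 q of at least 5 and 10, and became 0 in Axin2 windows shorter by 30 kb on each side (chosen after seeing the data), 0 at Lef1 with −log10 q of at least 10, 0 at Smad7 with −log10 q of at least 5 and 0 at Nr4a1 scaled to the shallowest library. Leaving out 1 library gave ranges of -2 to 0 at Axin2, 0 to 2 at Lef1, -1.50 to -0.5 at Smad7 and -1 to 2 at Nr4a1, where -1 was without replicate 1 of +Myf6. With −log10 q of at least 5, +Myf6 exceeded uninduced cells by 0.5, 2, 0.5 and 1.5 peaks at Axin2, Lef1, Smad7 and Nr4a1. The groups then parted at Lef1 only. For +Myf6+F/R/C the differences were 1.5, 3, 0.5 and 3, and the groups parted at Lef1 and Nr4a1 only. With −log10 q of at least 10, +Myf6 exceeded uninduced cells by 0 at Axin2 and +Myf6+F/R/C did by 0 at Smad7. Without 1 library, +Myf6 exceeded uninduced cells by 3 to 5, 2 to 4, 3.50 to 4.50 and 4 to 7 peaks at Axin2, Lef1, Smad7 and Nr4a1, and +Myf6+F/R/C did by 2 to 4, 4 to 4, 2.50 to 3.50 and 5 to 7.

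HA against IgG passed 0.05 as reported, and lost it with −log10 q of at least 5 at Axin2 (difference 1) and Smad7 (1), in the shorter window at Axin2 (1), and scaled to IgG depth (0.5, 1.25, 0.250 and 1.50 at Axin2, Lef1, Smad7 and Nr4a1). With the replicate block, which pairs HA and IgG of the same nuclei, the differences stayed 3.50, 3.50, 4 and 7.50, for which flipping the signs of the 4 pairs gave an exact p of 0.125, the smallest possible. Without 1 library the differences ran over 3 to 4, 3.33 to 4, 3.67 to 4.33 and 7.08 to 8.08. At Axin2 and Lef1 the exact permutation p was 0.0571 without any 1 of the 4 IgG libraries. Between treatments, +Myf6 and +Myf6+F/R/C libraries of the same number share a name prefix that the labels do not explain, so whether the numbers mark a shared batch is not known. The replicate block left the differences of +Myf6+F/R/C from +Myf6 at -1, 1, -1 and 0.5.

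Numbers of sites depended most on the rules. The 7 sites of +Myf6 became 1 with −log10 q of at least 5, 3 with summits within 200 bp and 3 in shorter windows. The 7 of +Myf6+F/R/C became 4, 3 and 4, and the 3 of both treatments became 1, 1 and 1, or 5 with no control filter and 5 with IgG lists as the only controls. With summits within 200 bp, the 3 regions of +Myf6+F/R/C alone became 1 and the 0 of +Myf6 alone became 1. Sites of either treatment became 0 at Axin2, 0 at Smad7 and 2 at Nr4a1 with −log10 q of at least 5, 1 at Lef1 and 0 at Nr4a1 with summits within 200 bp, 1 at Axin2 and 1 at Lef1 in shorter windows, and 7 at Nr4a1 with no control filter and 7 with IgG lists alone. The cause of these changes was not tested.

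For pileups, the log2 ratio at the Lef1 region turned to 0.30 without depth scaling and 0.27 without replicate 2 of +Myf6. At the strongest Nr4a1 region it turned to -0.36 by the authors' fold, -0.03 without replicate 1 of +Myf6 and -0.25 without replicate 2 of +Myf6+F/R/C, and at the Nr4a1 region on H3K27me3 to -0.31 without the latter library. Leaving out 1 library gave -0.84 to -0.54 at Axin2, -0.65 to 0.27 at Lef1, and -0.25 to 0.27, 0.12 to 0.65 and -0.31 to 0.38 at the Nr4a1 regions in order of position. Of all alternatives, 185 were classed as the same, 31 as moved, 9 as reversed and 19 as weaker. Those classed as the same kept direction and side of the threshold, or had a site count that could still differ somewhat. With no control filter, for example, the 7 sites of +Myf6 became 10, which was classed as the same.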
